A study of Arabidopsis thaliana with 72 samples.

Results

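The Aux/IAA and GH3 genes of Arabidopsis thaliana, the best known families of early auxin response genes, were followed through treatment with N-hydroxy-pipecolic acid (NHP). The genes were given as a list of 33 AGI identifiers, 26 Aux/IAA and 7 GH3, with GH3.12/PBS3 left out, and a gene was dropped if it had fewer than 10 counts in every library. This removed GH3.4 (AT1G59500), which had 0 counts in all 72 libraries, and left 32 of the 27655 genes in the count table. Of these 32 genes, 30 passed the filter on low counts and were tested (24 Aux/IAA and 6 GH3), while IAA6 (AT1G52830) and IAA29 (AT4G32280), with at most 10 and 13 counts in a library, were not tested. IAA15, IAA31, IAA33, GH3.9, GH3.10 and JAR1 were not on the list.

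The study asked which transcripts respond to NHP within minutes to hours, and which of these responses need salicylic acid (SA) or the plant's own NHP. Whole seedlings were grown in liquid medium for 10 days, and libraries were made from 3 genotypes: sid2-2, a mutant of the SA synthesis gene ICS1, fmo1-1, a mutant of the gene whose enzyme makes NHP, and the wild type Col-0. Seedlings received 0.5 mM NHP or a mock of MS medium alone, and were harvested 15 or 30 min, or 3 or 6 h, later. Each of the 24 groups held 3 libraries, each from the pooled seedlings of 1 well, so that p-values measured the spread between wells. All groups, mock included, had their medium replaced 1 h before treatment, and no other treatment is named for them. The library titled as sid2-2, 30 min, NHP, replicate 3 carried a time of 180 min in another label field and was grouped by its title. Its root mean square log2 distance over the genes tested was 0.317 to the mean of the other 2 libraries of that group, and 0.478 to the mean of the sid2-2 3 h NHP libraries.

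Auxin acts by bringing the TIR1/AFB receptors together with Aux/IAA proteins, which are then degraded. Aux/IAA proteins otherwise hold back the auxin response factors (ARFs), so that their loss releases ARF targets, and many Aux/IAA and GH3 genes are themselves such targets and rise quickly after auxin. GH3 enzymes join auxin to amino acids and so lower the amount of free hormone, and SA is known to repress auxin signaling in Arabidopsis.

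The sequence just upstream of the gene start is shown for the 2 genes with the lowest p among those that rose with NHP, GH3.2 (AT4G37390) and GH3.3 (AT2G23170), and for 2 genes that fell, GH3.17 (AT1G28130) and IAA17 (AT1G04250). These 4 genes were chosen for printing after their values were seen. The sequences are 300 bases long, read 5′ to 3′ along the gene's own strand, and come from TAIR10.1. Capitals mark the auxin response element TGTCTC, the W-box core TTGAC that WRKY factors bind and the core TGACG that TGA factors bind, searched on both strands. TTGAC and TGACG can share bases. None of the 4 stretches held TGTCGG, the other auxin response element searched.
GH3.2, chr4:17579318-17579617, plus strand: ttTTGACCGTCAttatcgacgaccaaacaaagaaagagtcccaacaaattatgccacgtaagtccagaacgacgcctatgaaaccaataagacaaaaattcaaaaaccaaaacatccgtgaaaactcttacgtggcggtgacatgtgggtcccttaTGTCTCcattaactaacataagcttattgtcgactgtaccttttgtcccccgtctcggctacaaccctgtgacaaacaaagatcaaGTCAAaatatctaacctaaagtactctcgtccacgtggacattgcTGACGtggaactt
GH3.3, chr2:9866563-9866862, minus strand: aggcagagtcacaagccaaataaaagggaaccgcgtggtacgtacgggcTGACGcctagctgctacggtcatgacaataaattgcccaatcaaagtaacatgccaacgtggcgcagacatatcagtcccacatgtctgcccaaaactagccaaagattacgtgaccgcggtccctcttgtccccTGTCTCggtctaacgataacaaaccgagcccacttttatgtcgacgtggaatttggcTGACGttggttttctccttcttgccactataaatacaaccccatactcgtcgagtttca
GH3.17, chr1:9824869-9825168, plus strand: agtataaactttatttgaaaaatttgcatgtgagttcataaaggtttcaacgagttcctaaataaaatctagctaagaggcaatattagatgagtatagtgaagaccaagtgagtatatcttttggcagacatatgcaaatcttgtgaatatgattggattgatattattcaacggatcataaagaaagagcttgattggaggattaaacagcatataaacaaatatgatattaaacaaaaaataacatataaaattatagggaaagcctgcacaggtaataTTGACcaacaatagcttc
IAA17, chr1:1135778-1136077, plus strand: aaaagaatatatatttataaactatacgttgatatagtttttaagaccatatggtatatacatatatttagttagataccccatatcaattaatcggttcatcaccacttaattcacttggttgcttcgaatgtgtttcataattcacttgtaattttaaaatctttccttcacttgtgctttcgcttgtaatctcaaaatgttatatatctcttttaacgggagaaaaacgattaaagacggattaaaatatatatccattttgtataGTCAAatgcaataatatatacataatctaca
GH3.2 and GH3.3 each had TGTCTC once, beginning 144 and 116 bases before the gene start, together with TGACG at 2 places each, and GH3.2 also had TTGAC at 2 places. GH3.17 and IAA17 had neither TGTCTC nor TGACG, and each had TTGAC once, 18 and 31 bases before the start. Over all 32 genes, TGTCTC was found upstream of 14 (43.8%), against 13.0% of 27443 genes, and TGTCGG upstream of 6 (18.8%), against 4.91%. TTGAC was found upstream of 15 of the 32 (46.9%), against 50.4%, and TGACG upstream of 5 (15.6%), against 21.3%. A match of these letters is a description of the sequence and not a binding site.

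Assigned counts per library ranged from 19618319 to 28382977 (median 23373939.5). Counts scaled to library size (CPM) of ICS1 lay between 0.433 and 1.52 in the 24 sid2-2 libraries, against 7.36 to 13.1 in Col-0, and those of FMO1 between 0.0419 and 0.500 in fmo1-1, against 1.77 to 4.57 in Col-0, without overlap. All markers of shoot (6 genes) and root (13 genes) were detected in every group, so that the libraries held both organs. In tissue of this kind, fewer cells of a type and less RNA per cell cannot be told apart. Library batches were given for Col-0 and sid2-2 alone. Mock and NHP libraries of 1 genotype and time shared no batch, except at 6 h in Col-0, so that batch and NHP cannot be told apart in Col-0 and sid2-2 at 15 min, 30 min and 3 h. Through links with other groups, a batch term could be fitted at 6 h. For fmo1-1 the batches were not given in the sources used here.

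The 2 families spanned a wide range of levels in mock-treated wild-type seedlings. In CPM per kb of exon, which allows levels of genes to be compared, IAA9 (AT5G65670) was the most abundant with 108 ± 7.84 (SD, 12 Col-0 mock libraries). IAA8 (AT2G22670), IAA16 (AT3G04730), IAA7 (AT3G23050, AXR2) and IAA17 (AXR3) followed with means of 50.4, 47.6, 41.4 and 41.2. The ranges of these 4 over the 12 libraries overlapped one another, and IAA9 lay above all of them with a lowest value of 98.3. IAA2, IAA28, IAA4, IAA26, IAA18, IAA27 and IAA12 had means between 9.61 and 26.1, and IAA13, IAA11, IAA3, IAA1, IAA14, IAA19 and IAA10 between 2.42 and 6.43. IAA30, IAA20, IAA5, IAA34, IAA6, IAA29 and IAA32 all averaged under 1, from 0.0871 to 0.988. Among the GH3 genes, GH3.17 and GH3.6 had means of 11.5 on the same scale, GH3.5 7.17, GH3.3 6.04, GH3.2 3.77 and GH3.1 0.349. With both families ranked together by their means, the ranges of neighbors overlapped, except that IAA9 stood above IAA8, IAA17 above IAA2, IAA10 above IAA30, and IAA30 above GH3.1.

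**Figure D1:**
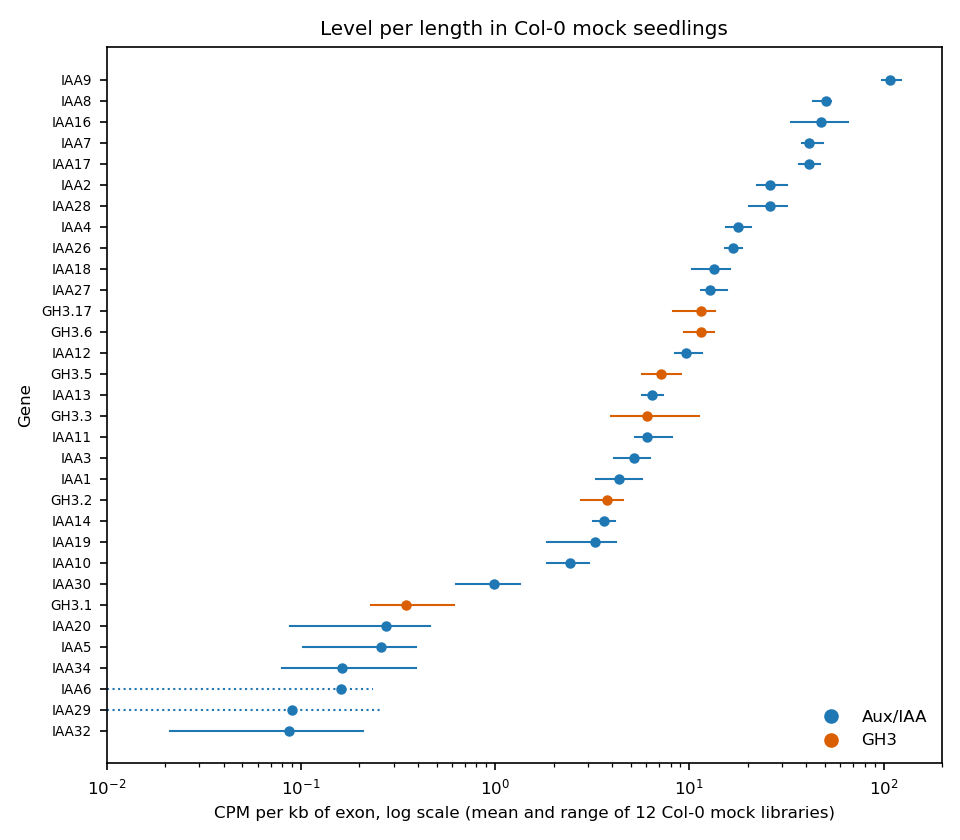
Level of the 32 genes in CPM per kb of exon (log axis) in Col-0 mock seedlings, with points for the mean and lines for the range of 12 libraries, dotted where the lowest library was at 0. IAA9 stands apart at 108, and the GH3 genes (orange) lie between 0.349 and 11.5.

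Reads of 8 genes (IAA3, IAA5, IAA9, IAA10, IAA11, IAA13, IAA27 and IAA32) could include those of a gene overlapping on the opposite strand, and those of IAA34 could include those of AT1G15060 on the same strand, since the handling of strand in counting is not given in the sources used here. Levels of these 9 genes are therefore uncertain.

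NHP changed 13 of the 30 genes in at least 1 comparison, by less than 2-fold in all calls but 1. A gene was called where edgeR's quasi-likelihood test gave a Benjamini-Hochberg adjusted p below 0.05 over all 21042 genes tested, and log2(FC) is the log2 ratio of NHP over mock with its standard error (SE). Of 360 tests, 30 genes in 12 comparisons, 28 were called (7.78%), 21 higher and 7 lower, beside 5.16% of the tests of all genes in the same comparisons. The GH3 genes took 17 calls in 72 tests (23.6%), 14 of them higher. The Aux/IAA genes took 11 calls in 288 tests (3.82%), 7 of them higher, a share below that of all genes. All 6 GH3 genes and 7 of the 24 Aux/IAA genes were called at least once. The share of all genes called at least once was not counted, so that these counts, and the 13 of 30, have no such share beside them. Only 1 call passed a log2(FC) of 1 in either direction. The libraries of NHP and mock did not overlap in 26 of the 28 calls. Calls were selected by a low p and the share over all genes called was not counted, so this lack of overlap adds no separate support. Of the 28 calls, 10 held without each of the 6 libraries compared in turn and 18 were lost without at least 1 of them. Where a call is given below as lost without several libraries, each was left out alone.

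The calls were spread unevenly over genotypes and times, as were those of all genes tested. In sid2-2, 0 of 30 genes were called at 15 min, where 4.88% of all genes tested were called, 2 at 30 min (1.85% of all genes), 5 at 3 h (13.0%) and 6 at 6 h (11.0%). In fmo1-1, 2 genes were called at 15 min (3.95% of all genes), 2 at 30 min (2.70%), 0 at 3 h (3.95%) and 4 at 6 h (5.16%). Col-0 had 0 calls at 15 min (2.71% of all genes), 2 at 30 min (2.02%), 2 at 3 h (3.86%) and 3 at 6 h (6.82%). Where edgeR called none, 4 genes in sid2-2 at 15 min, 2 in fmo1-1 at 3 h and 6 in Col-0 at 15 min had an unadjusted p below 0.05, and DESeq2 on the 72 libraries called 0, 0 and 1 genes. In sid2-2, 11 of 13 calls were higher, in fmo1-1 7 of 8, and in Col-0 3 of 7. The median log2(FC) of the 30 genes lay between -0.08 and 0.08 in the 12 comparisons, beside -0.02 to 0.01 over all genes tested.

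**Figure D2:**
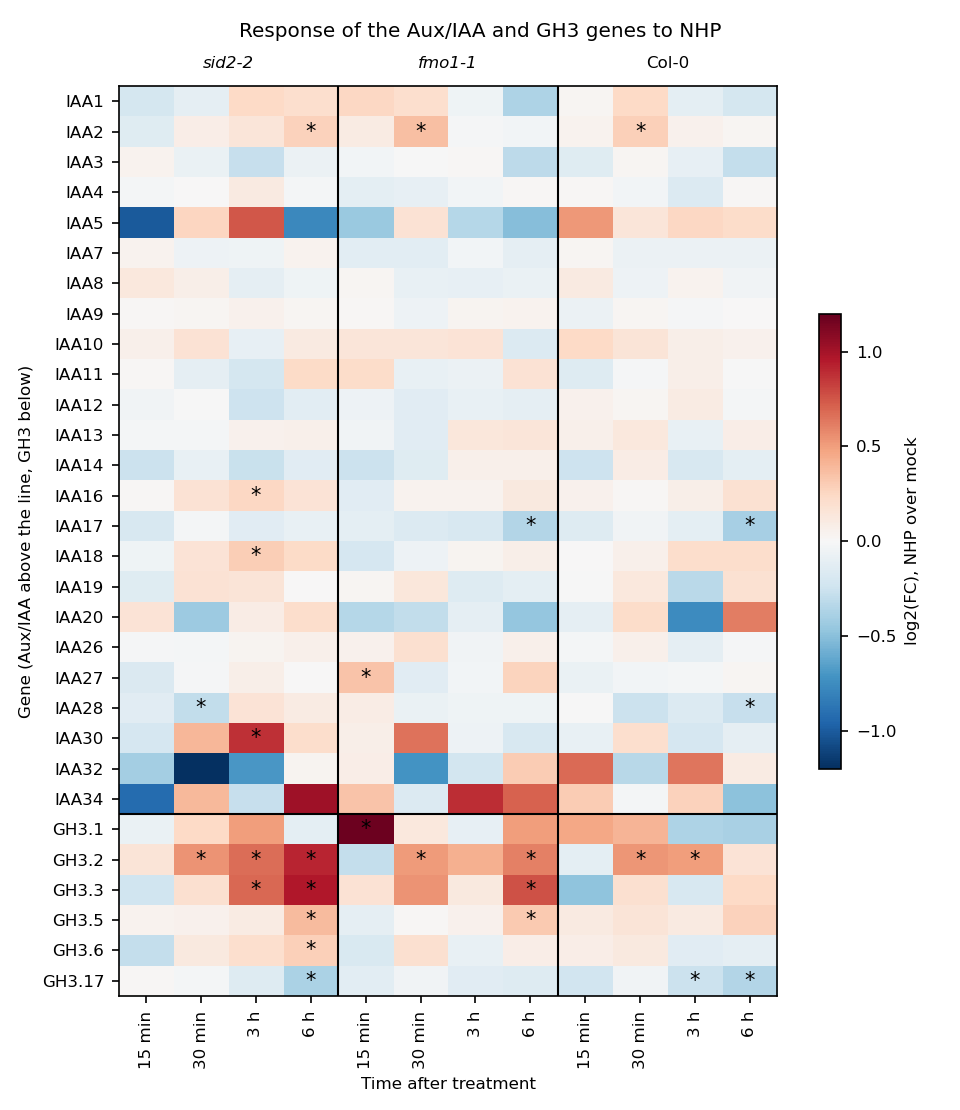
log2(FC) of NHP over mock for the 30 genes tested, by genotype and time after treatment, on a scale from blue (lower) to red (higher) that ends at 1.2 in either direction, with stars for the 28 calls. The row of GH3.2 has 7 stars, and strong color without a star falls on genes under 2 CPM, such as IAA5, IAA20, IAA32 and IAA34.

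GH3.2, an auxin conjugating enzyme, was the gene that NHP raised most often, in 7 of the 12 comparisons: in all 3 genotypes at 30 min, in sid2-2 and Col-0 at 3 h, and in sid2-2 and fmo1-1 at 6 h. At 30 min, GH3.2 had 9.79, 9.65 and 12.2 CPM in sid2-2 NHP libraries, against 7.26, 7.46 and 6.97 CPM in sid2-2 mock libraries. In fmo1-1 it had 14.4, 13.8 and 9.20 CPM with NHP, against 9.42, 8.27 and 8.55 CPM with mock. In Col-0 the values were 13.0, 13.2 and 13.6 CPM with NHP, against 8.45, 9.77 and 9.38 CPM with mock. The NHP libraries were all above mock in sid2-2 and Col-0, whereas in fmo1-1 NHP replicate 3 fell below the highest mock library. The changes were of similar size in sid2-2 (log2(FC) = 0.54 ± 0.14 SE, edgeR adjusted p = 0.0295), fmo1-1 (log2(FC) = 0.51 ± 0.14 SE, edgeR adjusted p = 0.0239) and Col-0 (log2(FC) = 0.53 ± 0.14 SE, edgeR adjusted p = 0.0177). The call was lost in sid2-2 without NHP replicate 3 or mock replicates 1, 2 and 3 (log2(FC) 0.42 to 0.56, adjusted p 0.0828 to 0.25), in fmo1-1 without NHP replicates 1 and 2 or mock replicates 2 and 3 (log2(FC) 0.39 to 0.49, adjusted p 0.0857 to 0.238) and in Col-0 without NHP replicate 3 or mock replicates 1 and 3 (log2(FC) 0.47 to 0.54, adjusted p 0.0567 to 0.151). In fmo1-1 it was also lost in fits of the 6 libraries alone, with adjusted p of 0.131 by edgeR and 0.0724 by DESeq2. At 15 min no change of GH3.2 was called, with log2(FC) of 0.15 in sid2-2, -0.29 in fmo1-1 and -0.12 in Col-0.

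At 3 h, GH3.2 had 10.97, 9.64 and 8.02 CPM in sid2-2 NHP libraries, against 6.22, 5.57 and 6.10 CPM in sid2-2 mock libraries, a rise without overlap (log2(FC) = 0.67 ± 0.15 SE, edgeR adjusted p = 0.00103) that held without each of the 6 libraries. In Col-0 it had 7.39, 10.4 and 9.05 CPM with NHP, against 5.98, 6.47 and 6.37 CPM with mock, again without overlap (log2(FC) = 0.50 ± 0.14 SE, edgeR adjusted p = 0.0303). The Col-0 call was lost without NHP replicates 2 and 3 or mock replicates 1, 2 and 3 (log2(FC) 0.38 to 0.52, adjusted p 0.0718 to 0.254). In the same Col-0 libraries the summed CPM of the 6 shoot markers was 19674 to 20919 with NHP, against 18593 to 19418 with mock, without overlap, and its part in the 3 h calls of GH3.2 and GH3.17 was not tested. In fmo1-1 the NHP libraries also lay above mock, with 7.86, 7.76 and 8.22 CPM against 5.29, 5.77 and 6.62 CPM, and the change did not pass the test (log2(FC) = 0.43 ± 0.15 SE, edgeR adjusted p = 0.0921). At 6 h, GH3.2 averaged 14.4 ± 2.43 CPM with NHP and 7.59 ± 1.43 CPM with mock (SD, n = 3 each) in sid2-2. The single libraries held 15.2, 11.7 and 16.3 CPM in sid2-2 NHP libraries, against 6.28, 9.11 and 7.38 CPM in sid2-2 mock libraries, so that every NHP library exceeded every mock library (log2(FC) = 0.91 ± 0.14 SE, edgeR adjusted p = 1.08e-06). This held without each library, and with library batch as a term the value was 0.71 ± 0.23 SE (adjusted p = 0.155), so that the call was lost. In fmo1-1 the 6 h values were 9.37, 9.41 and 11.97 CPM with NHP, against 6.67, 5.74 and 7.75 CPM with mock, without overlap (log2(FC) = 0.60 ± 0.14 SE, edgeR adjusted p = 0.00292), and the call was lost without NHP replicate 3 or mock replicate 2 (log2(FC) 0.48 to 0.50, adjusted p 0.0558 to 0.063). In Col-0 at 6 h, 8.88, 9.58 and 11.1 CPM with NHP overlapped with 8.74, 9.84 and 7.98 CPM with mock (log2(FC) = 0.16 ± 0.14 SE, edgeR adjusted p = 0.568).

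GH3.3, a close relative with the same activity, was called higher in 3 comparisons, in sid2-2 at 3 h and 6 h and in fmo1-1 at 6 h. In sid2-2 at 3 h it had 11.8, 11.6 and 10.8 CPM in sid2-2 NHP libraries, against 7.48, 6.60 and 6.98 CPM in sid2-2 mock libraries. All NHP libraries lay above all mock libraries (log2(FC) = 0.69 ± 0.17 SE, edgeR adjusted p = 0.00401). At 6 h GH3.3 averaged 15.0 ± 2.92 CPM with NHP and 7.66 ± 0.955 CPM with mock (SD, n = 3 each) in sid2-2, from 13.2, 18.4 and 13.4 CPM with NHP, against 7.13, 8.76 and 7.09 CPM with mock. NHP replicate 2 was the highest, and the groups did not overlap (log2(FC) = 0.96 ± 0.16 SE, edgeR adjusted p = 1.65e-05). With library batch as a term, GH3.3 was the 1 gene of the 30 still called in sid2-2 at 6 h, where its log2(FC) was 1.23 ± 0.29 SE (edgeR adjusted p = 0.022). In fmo1-1 at 6 h, GH3.3 had 19.3, 14.3 and 16.2 CPM in fmo1-1 NHP libraries, against 10.3, 9.82 and 9.10 CPM in fmo1-1 mock libraries, again without overlap (log2(FC) = 0.77 ± 0.15 SE, edgeR adjusted p = 0.00046). These 3 calls held without each of the libraries compared. In Col-0 the 6 h values of 14.9, 10.3 and 14.6 CPM with NHP overlapped with 12.002, 9.36 and 12.3 CPM with mock (log2(FC) = 0.24 ± 0.15 SE, edgeR adjusted p = 0.411). The Col-0 mock libraries at 15 min stood out, with 23.9, 12.9 and 19.2 CPM, against 14.0, 13.7 and 11.8 CPM with NHP, and the difference did not pass the test (log2(FC) = -0.49 ± 0.15 SE, edgeR adjusted p = 0.0639). In fmo1-1 at 30 min the NHP libraries were all higher (13.2, 13.1 and 12.4 CPM, against 8.22, 8.43 and 9.89 CPM with mock), just short of the threshold (log2(FC) = 0.54 ± 0.16 SE, edgeR adjusted p = 0.0514).

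**Figure D3:**
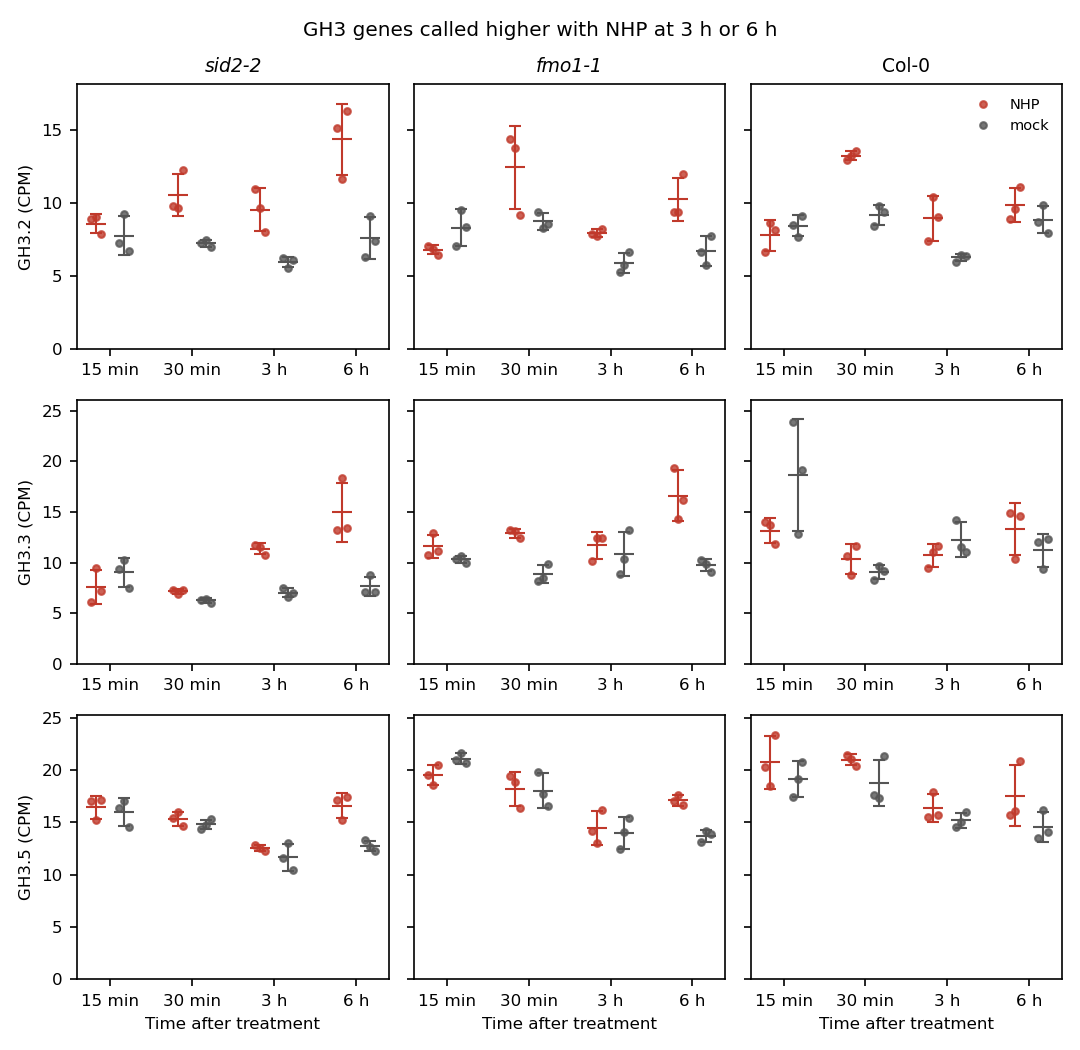
CPM of GH3.2, GH3.3 and GH3.5 in each library (points), with the mean and SD of 3 libraries (bars), for NHP (red) and mock (gray) by genotype and time after treatment. At 6 h in sid2-2, GH3.2 lies between 11.7 and 16.3 CPM with NHP and between 6.28 and 9.11 CPM with mock, without overlap.

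The other GH3 genes that rose did so in 1 or 2 comparisons. GH3.5 (AT4G27260), whose enzyme acts on both auxin and SA, had 17.1, 15.2 and 17.4 CPM in sid2-2 NHP libraries, against 13.3, 12.6 and 12.3 CPM in sid2-2 mock libraries at 6 h, without overlap (log2(FC) = 0.38 ± 0.10 SE, edgeR adjusted p = 0.00403). In fmo1-1 at 6 h it had 17.005, 17.6 and 16.6 CPM with NHP, against 13.1, 14.1 and 13.9 CPM with mock (log2(FC) = 0.32 ± 0.09 SE, edgeR adjusted p = 0.0289), and the libraries did not overlap either. The fmo1-1 call was lost without NHP replicates 1 and 2 or mock replicates 1, 2 and 3 (log2(FC) 0.29 to 0.34, adjusted p 0.0593 to 0.134). In Col-0 at 6 h the value was 0.27 (adjusted p = 0.0602), with overlap. GH3.6 (AT5G54510), another auxin conjugating enzyme, had 26.6, 29.8 and 25.9 CPM with NHP in sid2-2 at 6 h, against 23.6, 23.0 and 21.0 CPM with mock (log2(FC) = 0.29 ± 0.09 SE, edgeR adjusted p = 0.0375). That call was lost without NHP replicate 2 or mock replicates 2 and 3 (log2(FC) 0.23 to 0.30, adjusted p 0.072 to 0.24). With library batch as a term, neither GH3.5 (0.16, adjusted p = 0.776) nor GH3.6 (0.30, adjusted p = 0.562) was called in sid2-2 at 6 h.

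GH3.1 (AT2G14960), the least abundant of the GH3 genes tested, gave the call with the greatest log2(FC). In fmo1-1 at 15 min it had 1.03, 1.58 and 0.864 CPM in fmo1-1 NHP libraries, against 0.631, 0.527 and 0.237 CPM in fmo1-1 mock libraries, from at most 41 counts in any library. The groups did not overlap (log2(FC) = 1.18 ± 0.33 SE, edgeR adjusted p = 0.0231), and the call was lost without NHP replicate 2 or mock replicates 2 and 3 (log2(FC) 0.90 to 1.25, adjusted p 0.0576 to 0.233), as well as in fits of the 6 libraries alone, with adjusted p of 0.0765 by edgeR and 0.165 by DESeq2. None of its other 11 comparisons was called, and the lowest log2(FC) was -0.39.

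GH3.17, which conjugates auxin to glutamate, went the other way. Its log2(FC) was below 0 in 11 of 12 comparisons, and 3 were called lower. In sid2-2 at 6 h it had 20.6, 19.0 and 18.4 CPM in sid2-2 NHP libraries, against 27.1, 22.7 and 25.9 CPM in sid2-2 mock libraries, so that no library overlapped (log2(FC) = -0.38 ± 0.08 SE, edgeR adjusted p = 0.00034). This call held without each library, whereas with library batch as a term it did not pass (-0.22 ± 0.13 SE, adjusted p = 0.553). In Col-0, GH3.17 had 26.9, 26.2 and 25.5 CPM with NHP at 3 h, against 32.0, 32.8 and 29.3 CPM with mock (log2(FC) = -0.26 ± 0.08 SE, edgeR adjusted p = 0.0341). At 6 h the Col-0 values were 21.6, 19.9 and 19.1 CPM with NHP, against 22.6, 25.4 and 29.2 CPM with mock (log2(FC) = -0.35 ± 0.08 SE, edgeR adjusted p = 0.00136), and at neither time did the groups overlap. The 3 h call was lost without NHP replicates 1, 2 and 3 or mock replicates 1 and 2 (log2(FC) -0.28 to -0.23, adjusted p 0.0574 to 0.17), and in a fit of the 6 libraries by DESeq2 (adjusted p = 0.0837). The 6 h call was lost without mock replicate 3 (log2(FC) -0.25, adjusted p 0.0731), and with library batch as a term (-0.43 ± 0.12 SE, adjusted p = 0.0792). In fmo1-1 all 4 values were between -0.15 and -0.05, and none was called.

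IAA17, a repressor known from the stabilized axr3 mutants, was below 0 in all 12 comparisons and called lower at 6 h in fmo1-1 and Col-0. In fmo1-1 it had 34.0, 39.5 and 42.5 CPM in fmo1-1 NHP libraries, against 49.9, 52.2 and 46.0 CPM in fmo1-1 mock libraries, without overlap (log2(FC) = -0.35 ± 0.07 SE, edgeR adjusted p = 0.000626). In Col-0 it had 40.9, 35.6 and 36.0 CPM with NHP, against 48.5, 50.7 and 49.4 CPM with mock, also apart (log2(FC) = -0.40 ± 0.07 SE, edgeR adjusted p = 6.48e-05). Both calls held without each library, and with library batch as a term the Col-0 value was -0.27 ± 0.12 SE (adjusted p = 0.42), so that the call was lost. In sid2-2 at 6 h the groups overlapped, with 40.4, 39.5 and 39.0 CPM with NHP and 41.1, 39.1 and 46.1 CPM with mock (log2(FC) = -0.09 ± 0.07 SE, edgeR adjusted p = 0.521). The difference between the sid2-2 and Col-0 responses of IAA17 at 6 h was 0.31 ± 0.10 SE (edgeR adjusted p = 0.116) and did not pass the test.

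IAA28 (AT5G25890), a repressor best known from lateral root formation, was called lower in 2 comparisons. In sid2-2 at 30 min it had 18.7, 20.4 and 18.7 CPM in sid2-2 NHP libraries, against 22.4, 23.3 and 25.5 CPM in sid2-2 mock libraries, without overlap (log2(FC) = -0.30 ± 0.08 SE, edgeR adjusted p = 0.042). In Col-0 at 6 h it had 36.6, 34.2 and 34.5 CPM with NHP, against 42.4, 40.5 and 44.2 CPM with mock, also without overlap (log2(FC) = -0.27 ± 0.07 SE, edgeR adjusted p = 0.0133). The sid2-2 call was lost without NHP replicates 1 and 3 or mock replicates 2 and 3 (log2(FC) -0.31 to -0.24, adjusted p 0.0966 to 0.24), and in fits of the 6 libraries alone, with adjusted p of 0.0564 by edgeR and 0.154 by DESeq2. The Col-0 call was lost without NHP replicates 2 and 3 or mock replicate 3 (log2(FC) -0.26 to -0.24, adjusted p 0.06 to 0.0851), and with library batch as a term (-0.27, adjusted p = 0.515). At 6 h the sid2-2 value was 0.10 and the difference from Col-0 0.37 ± 0.11 SE (edgeR adjusted p = 0.061), just outside the threshold.

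**Figure D4:**
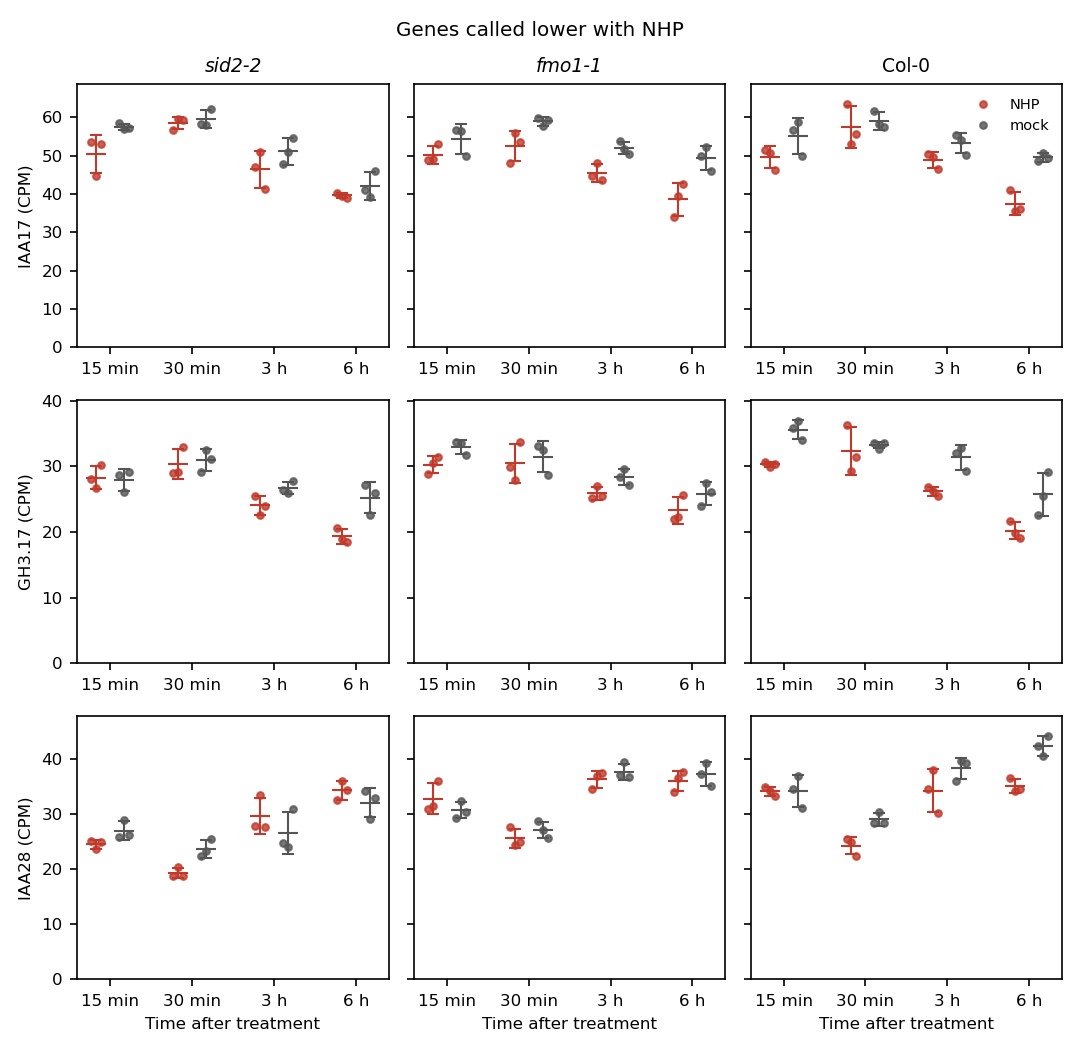
CPM of IAA17, GH3.17 and IAA28 in each library (points), with the mean and SD of 3 libraries (bars), for NHP (red) and mock (gray) by genotype and time after treatment. At 6 h in Col-0, IAA17 lies between 35.6 and 40.9 CPM with NHP and between 48.5 and 50.7 CPM with mock.

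Markers of root and shoot were read in the same libraries. Of the 13 root markers, EXP7 and COBL9, which act in root hair growth, were called lower in all 12 comparisons (log2(FC) -1.49 to -0.91 for EXP7 and -0.87 to -0.38 for COBL9), and 2 to 4 root markers were called lower in each comparison. TIP2;3, CASP1 and NRT2.1 took 7, 3 and 1 of the other calls lower, PHO1 was called higher in 1 comparison, and PYK10, SCR, SHR, WOX5, MYB36, GPAT5 and HKT1 were not called. Over the 12 comparisons, 22.4% of the root marker tests were called lower, beside 2.88% of the tests of all genes. At 6 h the summed CPM of the root list lay between 3575 and 4256 with NHP in Col-0, against 4297 and 4588 with mock, but between 4676 and 4853 with NHP in sid2-2, against 4419 and 4792 with mock. Corresponding sums for the 6 shoot markers at 6 h were 14462 to 14836 with NHP and 14390 to 15818 with mock in Col-0, and 21820 to 23032 with NHP and 21574 to 23958 with mock in sid2-2. In fmo1-1 at 6 h the shoot sums were 12702 to 14126 with NHP, against 14543 to 15287 with mock, without overlap, and the root sums 4226 to 4545 with NHP, against 4134 to 4487 with mock. No marker was at 0 in any group. The part of these shifts in the values of IAA17, IAA28 and GH3.17, and in those of GH3.2, GH3.3 and GH3.5 in fmo1-1 at 6 h, was not tested.

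IAA2 (AT3G23030), a widely used auxin reporter gene, rose slightly in all genotypes at 1 time or another. At 30 min in fmo1-1 it had 40.4, 42.5 and 37.9 CPM in fmo1-1 NHP libraries, against 30.7, 33.0 and 30.6 CPM in fmo1-1 mock libraries, without overlap (log2(FC) = 0.36 ± 0.08 SE, edgeR adjusted p = 0.00381), and this held without each library. The shoot marker sums of fmo1-1 at 30 min were 20810 to 21563 CPM with NHP, against 23500 to 25967 with mock, and their part in the calls of IAA2 and GH3.2 was not tested. In Col-0 at 30 min it had 40.6, 40.1 and 37.7 CPM with NHP, against 33.0, 34.1 and 30.4 CPM with mock, again apart (log2(FC) = 0.28 ± 0.08 SE, edgeR adjusted p = 0.0462). That call was near the threshold and was lost without NHP replicates 1, 2 and 3 or mock replicates 1, 2 and 3 (log2(FC) 0.24 to 0.32, adjusted p 0.0549 to 0.291). In sid2-2 at 30 min the groups overlapped and nothing was called, while at 6 h IAA2 had 35.2, 42.6 and 36.7 CPM in sid2-2 NHP libraries, against 31.7, 33.6 and 29.3 CPM in sid2-2 mock libraries (log2(FC) = 0.28 ± 0.08 SE, edgeR adjusted p = 0.0148). The groups at 6 h did not overlap, and the call was lost without NHP replicate 2 or mock replicate 3 (log2(FC) 0.20 to 0.23, adjusted p 0.131 to 0.22), and with library batch as a term (0.31, adjusted p = 0.431).

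The other 4 Aux/IAA genes with a call had 1 each, 3 of them in sid2-2 at 3 h. IAA30 (AT3G62100), which lacks the usual degradation motif of the family, had 1.199, 1.16 and 1.22 CPM in sid2-2 NHP libraries, against 0.529, 0.535 and 0.781 CPM in sid2-2 mock libraries, from 8 to 38 counts per library over the whole series. The groups did not overlap (log2(FC) = 0.88 ± 0.29 SE, edgeR adjusted p = 0.0361), and the call was lost without NHP replicates 1, 2 and 3 or mock replicates 1 and 2 (log2(FC) 0.79 to 0.90, adjusted p 0.0658 to 0.142) and in fits of the 6 libraries alone, with adjusted p of 0.0617 by edgeR and 0.201 by DESeq2. IAA18 (AT1G51950) had 26.7, 25.7 and 24.6 CPM with NHP, against 21.0, 19.6 and 22.0 CPM with mock, without overlap (log2(FC) = 0.30 ± 0.09 SE, edgeR adjusted p = 0.0169). IAA16 had 102, 94.7 and 84.0 CPM with NHP, against 84.1, 73.6 and 78.8 CPM with mock, where NHP replicate 3 fell just below mock replicate 1 (log2(FC) = 0.25 ± 0.07 SE, edgeR adjusted p = 0.0146). The IAA18 call was lost without NHP replicates 1 and 2 or mock replicates 1 and 2 (log2(FC) 0.26 to 0.30, adjusted p 0.0502 to 0.101), and the IAA16 call without NHP replicates 1 and 2 or mock replicate 2 (log2(FC) 0.18 to 0.24, adjusted p 0.0606 to 0.156). At this time in sid2-2 the shoot marker sums were 28033 to 28675 CPM with NHP, against 28715 to 31996 with mock, and the root sums 4312 to 4622 with NHP, against 3894 to 4314 with mock, and their part in these values was not tested.

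IAA27 (AT4G29080) was the other gene called in fmo1-1 at 15 min. It had 17.4, 19.97 and 21.7 CPM in fmo1-1 NHP libraries, against 17.1, 14.3 and 15.0 CPM in fmo1-1 mock libraries, with NHP replicate 1 just above the highest mock library (log2(FC) = 0.34 ± 0.10 SE, edgeR adjusted p = 0.0382). The call was lost without NHP replicates 2 and 3 or mock replicates 2 and 3 (log2(FC) 0.27 to 0.33, adjusted p 0.128 to 0.214), and in fits of the 6 libraries alone, with adjusted p of 0.0686 by edgeR and 0.106 by DESeq2.

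The remaining 17 genes were called in none of the 12 comparisons. These were IAA1, IAA3, IAA4, IAA5, IAA7, IAA8, IAA9, IAA10, IAA11, IAA12, IAA13, IAA14, IAA19, IAA20, IAA26, IAA32 and IAA34, so that classical auxin-induced members such as IAA1, IAA5 and IAA19 were among them. In the 13 of these with a mean of at least 2 CPM, log2(FC) stayed between -0.37 and 0.25. IAA9, the most abundant, kept within -0.07 and 0.05, and IAA7 within -0.13 and 0.04. IAA5, IAA20, IAA32 and IAA34 were under 2 CPM, with log2(FC) between -1.24 and 1.02, none of which passed the test. IAA32 had 3, 24 and 3 counts in the mock libraries of sid2-2 at 6 h, against 12, 2 and 20 with NHP. IAA6 and IAA29, which were not tested, had at most 0.411 and 0.501 CPM in a library.

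Whether the mutants responded differently from the wild type was tested as the difference of the 2 responses at the same time, which rests on 12 libraries. Of 120 such tests in sid2-2, 2 were called, and of 120 in fmo1-1 0 were. At 3 h, 1 gene of 30 was called in sid2-2, beside 2.17% of all genes tested. This was GH3.3, whose NHP response exceeded that of Col-0 by 0.88 ± 0.23 SE (log2, edgeR adjusted p = 0.031). A batch term could not be fitted for this difference, so that batch cannot be told apart from it. The sid2-2 libraries are given above, and those of Col-0 had 9.43, 11.1 and 11.7 CPM with NHP and 14.2, 11.6 and 11.03 CPM with mock, so that all sid2-2 libraries lay above their mock and the Col-0 groups overlapped. The call was lost without sid2-2 NHP replicates 1 and 2, Col-0 NHP replicate 1, sid2-2 mock replicates 1 and 2 or Col-0 mock replicate 1 (difference 0.78 to 0.93, adjusted p 0.0659 to 0.116), and in a fit of the Col-0 and sid2-2 libraries alone (adjusted p = 0.0502), and DESeq2 gave it no adjusted p. With NHP at 3 h, the GH3.3 libraries of sid2-2 and Col-0 overlapped. In mock at 3 h, all sid2-2 libraries lay below those of Col-0 (log2 difference -0.79 ± 0.17 SE, edgeR adjusted p = 0.000116). At 6 h, 1 gene of 30 was called, beside 1.06% of all genes. This was GH3.2, whose response in sid2-2 exceeded that in Col-0 by 0.75 ± 0.19 SE (edgeR adjusted p = 0.0328). The call was lost without sid2-2 NHP replicate 3, Col-0 NHP replicates 1 and 2, sid2-2 mock replicates 1 and 3 or Col-0 mock replicates 1 and 2 (difference 0.64 to 0.77, adjusted p 0.0592 to 0.119), and with library batch as a term (0.55 ± 0.24 SE, adjusted p = 0.312). The corresponding value of GH3.3 at 6 h was 0.73 ± 0.22 SE (adjusted p = 0.0853). At 15 and 30 min 0 genes of 30 were called in sid2-2, where 0% and 0.204% of all genes were, with 3 and 0 genes at an unadjusted p below 0.05 by edgeR and 0 called by DESeq2.

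In fmo1-1 the responses were called different from Col-0 for 0 of the 30 genes at each time, beside 0.181%, 0%, 0.00475% and 0% of all genes in order of time. Unadjusted p was below 0.05 for 4, 1, 1 and 4 genes, and DESeq2 also called 0. At 6 h the difference was 0.44 ± 0.20 SE for GH3.2 and 0.53 ± 0.22 SE for GH3.3 (edgeR adjusted p = 0.951 for both), so that an equal response was not shown either. The rise of both genes in fmo1-1 at 6 h, which was not called in Col-0, is therefore not shown to differ between the genotypes.

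Without NHP, the genes differed between sid2-2 and Col-0 far more often than NHP changed them. Of 120 tests 31 were called, 28 of them lower in sid2-2, in 15 genes. At 15 min 7 of the 30 genes were called (31.4% of all genes tested), at 30 min 8 (25.6%), then 12 at 3 h (36.6%) and finally 4 at 6 h (31.3%). The shares of the 30 genes were thus near or below those of all genes, and differences between these genotypes were widespread over the whole table. The median log2 difference of the 30 genes was -0.02, -0.11, -0.14 and -0.14 at the 4 times, beside -0.01, -0.01, -0.01 and 0.02 over all genes. These comparisons share their mock libraries with the NHP comparisons above. In the mock comparisons of genotypes, log2(FC) is the log2 ratio of the mutant over Col-0. At 15 min all mock libraries of both genotypes came from 1 batch. At 30 min and 3 h the mock libraries of sid2-2 and Col-0 shared no batch, so that genotype and batch cannot be told apart there. At 6 h only Col-0 mock replicate 3 shared a batch with sid2-2 mock. The paper states that each plate of wells held 1 genotype, so genotype and plate cannot be told apart in these comparisons.

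GH3.3 was lower in sid2-2 at every time. At 15 min it had 9.35, 10.3 and 7.46 CPM in sid2-2 mock libraries, against 23.9, 12.9 and 19.2 CPM in Col-0 mock libraries, without overlap (log2(FC) = -1.04 ± 0.16 SE, edgeR adjusted p = 6.12e-07). At 30 min the values were 6.30, 6.45 and 6.04 CPM in sid2-2, against 8.33, 9.63 and 9.22 CPM in Col-0 (log2(FC) = -0.52 ± 0.18 SE, edgeR adjusted p = 0.0214), and the call was lost without sid2-2 mock replicates 1 and 3 or Col-0 mock replicates 2 and 3 (log2 difference -0.53 to -0.48, adjusted p 0.0515 to 0.0721). At 3 h they were 7.48, 6.60 and 6.98 CPM in sid2-2, against 14.2, 11.6 and 11.03 CPM in Col-0 (log2(FC) = -0.79 ± 0.17 SE, edgeR adjusted p = 0.000116), and at 6 h 7.13, 8.76 and 7.09 CPM in sid2-2, against 12.002, 9.36 and 12.3 CPM in Col-0 (log2(FC) = -0.55 ± 0.16 SE, edgeR adjusted p = 0.0074). At no time did the groups overlap, and with library batch as a term the calls at 15 min and 6 h, where it could be fitted, held (-1.03, adjusted p = 1.03e-05, and -0.71, adjusted p = 0.0298).

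IAA28 was lower in sid2-2 at all 4 times as well. At 6 h it had 34.1, 29.1 and 33.0 CPM in sid2-2 mock libraries, against 42.4, 40.5 and 44.2 CPM in Col-0 mock libraries, without overlap (log2(FC) = -0.40 ± 0.08 SE, edgeR adjusted p = 2.09e-05), and with library batch as a term the value was -0.49 (adjusted p = 0.00131). At the earlier times the difference was -0.34 (adjusted p = 0.00044), -0.29 (adjusted p = 0.00464) and -0.53 (adjusted p = 8.06e-08). IAA27 was lower at 15 min, with 14.8, 16.0 and 13.5 CPM in sid2-2, against 18.4, 18.3 and 22.3 CPM in Col-0 (log2(FC) = -0.42 ± 0.10 SE, edgeR adjusted p = 0.00103), and it was called again at 30 min and 3 h. IAA12 (AT1G04550, BODENLOS), a repressor of embryonic root formation, was the 1 gene of the 30 called higher in sid2-2, at the first 3 times. At 15 min it had 19.9, 19.9 and 20.8 CPM in sid2-2 mock libraries, against 12.8, 14.7 and 17.5 CPM in Col-0 mock libraries, without overlap (log2(FC) = 0.42 ± 0.09 SE, edgeR adjusted p = 0.000203).

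IAA19 (AT3G15540), a repressor that acts in hypocotyl bending, had 1.87, 2.81 and 2.05 CPM in sid2-2 mock libraries, against 3.79, 3.56 and 4.22 CPM in Col-0 mock libraries at 3 h, without overlap (log2(FC) = -0.76 ± 0.17 SE, edgeR adjusted p = 0.000235). GH3.1 had 0.407, 0.624 and 0.342 CPM in sid2-2 at 3 h, against 1.37, 1.13 and 0.518 CPM in Col-0, with overlap (log2(FC) = -0.99 ± 0.33 SE, edgeR adjusted p = 0.0143), and was not called without sid2-2 mock replicates 1 and 3 or Col-0 mock replicates 1 and 2 (log2 difference -0.92 to -0.75, adjusted p 0.0533 to 0.111). At 30 min IAA30 had 0.721, 0.385 and 0.622 CPM in sid2-2, against 1.15, 0.626 and 1.33 CPM in Col-0, with overlap (log2(FC) = -0.78 ± 0.30 SE, edgeR adjusted p = 0.0481), and was not called without sid2-2 mock replicates 2 and 3 or Col-0 mock replicates 1 and 3 (log2 difference -0.83 to -0.58, adjusted p 0.0819 to 0.231), with other size factors (0.0505), without the filter (0.0577) or by DESeq2 (0.0694). GH3.5 at 30 min had 14.4, 14.7 and 15.3 CPM in sid2-2, against 17.7, 17.3 and 21.3 CPM in Col-0 (log2(FC) = -0.34 ± 0.09 SE, edgeR adjusted p = 0.00433), a call lost without Col-0 mock replicate 3 (log2 difference -0.24, adjusted p 0.0863). GH3.5 was also lower, without overlap, with log2(FC) at 15 min of -0.26 (adjusted p = 0.0243) and at 3 h of -0.38 (adjusted p = 0.00143). GH3.6 at 6 h had 23.6, 23.0 and 21.0 CPM in sid2-2, against 28.1, 27.1 and 26.2 CPM in Col-0 (log2(FC) = -0.27 ± 0.09 SE, edgeR adjusted p = 0.0242), a call lost without sid2-2 mock replicate 3 or Col-0 mock replicate 1 (log2 difference -0.25 to -0.22, adjusted p 0.0732 to 0.13) and with library batch as a term (-0.25, adjusted p = 0.25). At 3 h GH3.6 had 21.4, 16.5 and 21.7 CPM in sid2-2, against 28.3, 24.6 and 25.9 CPM in Col-0, without overlap (log2(FC) = -0.40 ± 0.10 SE, edgeR adjusted p = 0.000643). Values without single libraries were not read out for these further calls of GH3.5 and GH3.6. The other genes called lower in sid2-2 at 1 time or more were IAA1, IAA4, IAA8, IAA9, IAA17 and GH3.17, with differences between -0.54 and -0.10.

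The balance of shoot and root transcripts differed between these genotypes too. Of the 6 shoot markers, 5, 5, 6 and 6 were called higher in sid2-2 mock at the 4 times in order, and of the 13 root markers 6, 6, 8 and 6 were called lower. Beside these, 31.4%, 25.6%, 36.6% and 31.3% of all genes tested were called in either direction. The shoot sums at 15 min were 31723 to 32631 CPM in sid2-2, against 22115 to 22293 in Col-0, and at 6 h 21574 to 23958 in sid2-2, against 14390 to 15818 in Col-0. The root sums at 15 min were 4102 to 4513 CPM in sid2-2, against 4415 to 4906 in Col-0, and at 6 h 4419 to 4792 in sid2-2, against 4297 to 4588 in Col-0. No marker was at 0, and the part of this shift in the differences of the Aux/IAA and GH3 genes was not tested.

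In fmo1-1 mock libraries, 1 of 120 tests was called, and it was again GH3.3. At 15 min GH3.3 had 10.4, 10.6 and 9.99 CPM in fmo1-1 mock libraries, against 23.9, 12.9 and 19.2 CPM in Col-0 mock libraries, without overlap (log2(FC) = -0.84 ± 0.15 SE, edgeR adjusted p = 0.00171), beside 0.561% of all genes tested. Without Col-0 replicate 1, the highest library, the difference was -0.63 (adjusted p = 0.0961) and the call was lost. At 30 min, 3 h and 6 h 0 genes were called, beside 0.299%, 0.0665% and 0.0713% of all genes, with 2, 1 and 3 genes at an unadjusted p below 0.05 and 0 called by DESeq2. The shoot and root marker lists had 0 calls in fmo1-1 at any time, by edgeR.

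**Figure D5:**
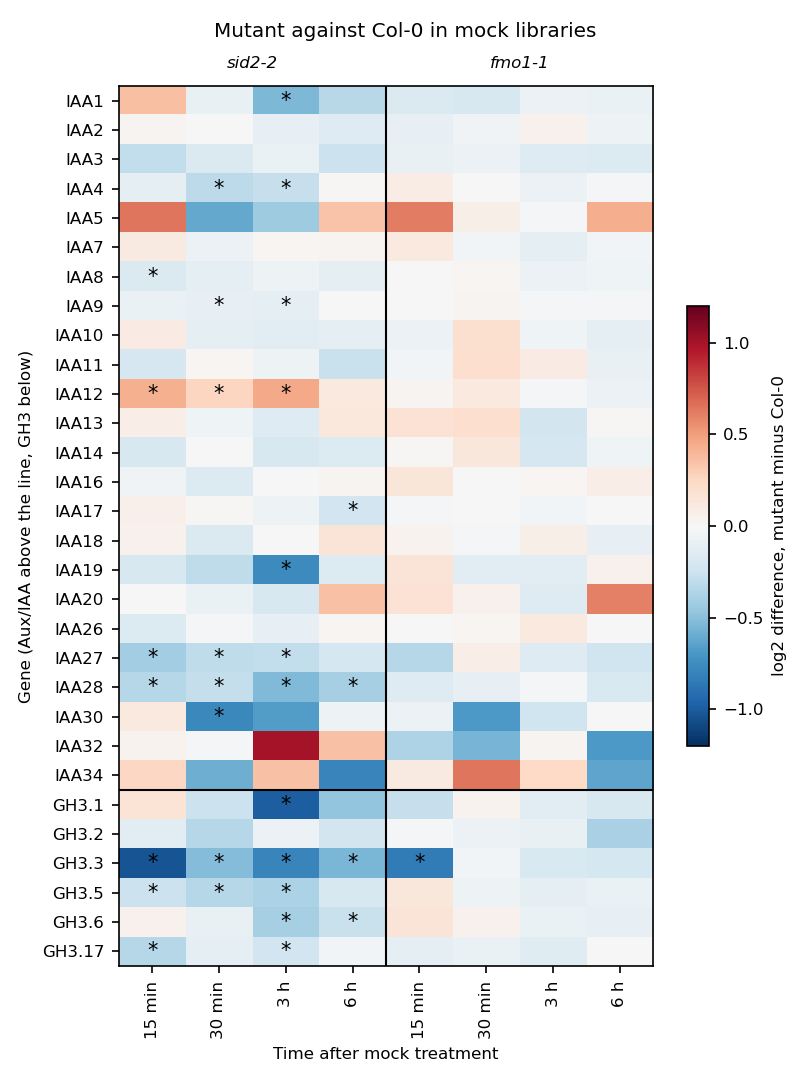
log2 difference of the mutant minus Col-0 in mock libraries for the 30 genes tested, by mutant and time after mock treatment, on a scale from blue (lower in the mutant) to red (higher) that ends at 1.2 in either direction, with stars for calls. GH3.3 and IAA28 are starred at all 4 times in sid2-2, and fmo1-1 has 1 star, GH3.3 at 15 min.

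The mock libraries also changed over the hours of the experiment. Averaged over the genotypes, 7 genes were called between 15 and 30 min (31.4% of all genes tested), 11 between 30 min and 3 h (47.8%) and 9 between 3 and 6 h (33.4%), in both directions. In Col-0 and sid2-2, mock libraries of different times shared no batch, so that batch and time cannot be told apart in these comparisons. Time of day and time since the change of medium moved together as well. GH3.3 had a median of 10.4 CPM over the 9 mock libraries at 15 min (7.46 to 23.9), and of 8.33 CPM at 30 min (6.04 to 9.89), a fall of 0.59 ± 0.10 SE on the log2 scale (edgeR adjusted p = 2.38e-06). IAA2 had a median of 39.1 CPM at 15 min (34.6 to 49.4) and of 32.3 CPM at 30 min (30.4 to 34.9), a log2 difference of -0.32 ± 0.05 SE (adjusted p = 1.12e-07). GH3.1 had a median of 0.577 CPM at 15 min (0.237 to 0.732) and of 0.834 CPM at 30 min (0.622 to 1.16), a difference of 0.55 ± 0.19 SE (adjusted p = 0.0225). The GH3.1 call was lost without fmo1-1 15 min replicate 3, fmo1-1 30 min replicate 1 or sid2-2 30 min replicate 1 (0.46 to 0.49, adjusted p 0.0548 to 0.0707).

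IAA16, a repressor close in sequence to IAA7 and IAA17, had the lowest p of the 30 genes in these tests. Its median was 122 CPM over the 9 mock libraries at 30 min (107 to 132) and 78.8 CPM at 3 h (73.6 to 85.0), without overlap, a log2 difference of -0.61 ± 0.04 SE (edgeR adjusted p = 2.95e-20). GH3.2 had a median of 8.45 CPM at 30 min (6.97 to 9.77), 6.10 CPM at 3 h (5.29 to 6.62) and 7.75 CPM at 6 h (5.74 to 9.84). It fell by 0.46 on the log2 scale between 30 min and 3 h (adjusted p = 6.75e-06), without overlap, and was 0.34 higher at 6 h than at 3 h (adjusted p = 0.0011). IAA18 had a median of 27.0 CPM at 30 min (23.8 to 29.3) and 21.5 CPM at 3 h (18.4 to 24.8), a difference of -0.35 (adjusted p = 2.95e-08). Between 3 and 6 h, IAA19 had medians of 3.56 CPM (1.87 to 4.22) and 2.46 CPM (1.88 to 3.02), a difference of -0.37 (adjusted p = 0.00248), and GH3.17 of 28.4 CPM (26.0 to 32.8) and 25.9 CPM (22.6 to 29.2), a difference of -0.17 (adjusted p = 0.00163). Shoot markers shifted over the same hours, with 6 of 6 called lower at 3 h than at 30 min and 5 of 6 lower at 6 h than at 3 h. Of all genes tested, 47.8% and 33.4% were called in either direction. The part of the shoot markers in these values was not tested.

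Other genes of the auxin pathway were counted as lists over the same 12 NHP comparisons. Of the relatives left off the list, IAA31 (AT3G17600) was called lower in 8 of 12 comparisons, and its log2(FC) lay between -1.38 and -0.49 in all 12. The lowest value was in fmo1-1 at 6 h (log2(FC) = -1.38 ± 0.24 SE, edgeR adjusted p = 3.35e-05). GH3.9 and GH3.10 were called lower in sid2-2 in 2 comparisons and 1, so that these 5 tested genes gave 0 calls higher and 11 lower in 60 tests (18.3% lower, against 2.88% of the tests of all genes). Among 5 genes that oxidize auxin or free it from conjugates, 8 of 60 tests were called, all higher (13.3%, against 2.28% higher over all genes). IAR3, which cleaves amino acid conjugates of auxin and of jasmonate, took 5 of them, and reached 0.73 ± 0.11 SE in sid2-2 at 6 h (edgeR adjusted p = 5.33e-06), and ILR1, with a similar activity, and DAO1, the auxin oxidase, took the other 3.

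Over the same 12 comparisons, 5.16% of the tests of all genes were called, 2.28% higher and 2.88% lower. The 6 receptors had 1 call in 72 tests (1.39%), AFB1 lower in Col-0 at 15 min (-0.27, adjusted p = 0.0332), and 15 ARFs had 4 in 180 (2.22%), all in sid2-2, of which ARF11 (-0.63, adjusted p = 0.0259 at 6 h) and ARF5 (0.35, adjusted p = 0.00513 at 3 h) were the greatest. Of 10 synthesis genes, TAR2 was called lower in 3 comparisons (2.50% of 120 tests), with -0.41 in sid2-2 at 3 h (adjusted p = 0.000116). The 13 transport genes had 2 calls higher and 5 lower in 156 tests (4.49% in all), among them ABCB4 higher in sid2-2 at 3 h (0.99, adjusted p = 0.0111) and LAX3 lower in 3 comparisons (-0.34 in Col-0 at 6 h, adjusted p = 0.00371). Of 9 other auxin-induced genes tested, HAT2 was called once in 108 tests (0.926%), higher in fmo1-1 at 30 min (0.32, adjusted p = 0.0379), and SAUR-type or other members of that list had 0 calls. The list of PIF3, PIF4, PIF5, PIF7 and ATHB2, light signaling factors, had 5 calls in 60 tests (8.33%), all lower and none of them in PIF3 or ATHB2, with -0.45 for PIF4 in sid2-2 at 6 h (adjusted p = 0.000355). The medians of these lists over the 12 comparisons lay between -0.30 and 0.29.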

How the data were processed

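Poly(A) RNA libraries of whole seedlings (72, in 24 groups of 3) were sequenced as paired reads. The count values per gene were made by the authors and deposited as a table without normalization. FastQC served for read quality, CLC Genomics Workbench for trimming, and TAIR10 as the genome. How reads were counted, and with what use of strand, is not given in the sources used here. Depth is given with the results, and replicates differed beyond counting noise (chi-square per degree of freedom 2.45 to 13.3).

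Genes were kept with edgeR's filterByExpr (minimum count 10, minimum total 15), scaled by TMM and fitted over all 72 libraries with robust quasi-likelihood (R 4.3.3, edgeR 4.0.16, limma 3.58.1), with Benjamini-Hochberg adjustment over 21042 genes and a threshold of 0.05. CPM used TMM library sizes. Comparisons were NHP against mock, the difference of that response between mutant and Col-0, mutant against Col-0 in mock, and successive times in mock averaged over genotypes. The script recovered known changes in a single simulated comparison, with equal spread for all genes and without batches. Low counts, differences of responses and the smaller changes called here were not simulated.

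Alternatives were other size factors, no filter, DESeq2 1.42.0, fits of only the libraries compared, a replicate block, a library batch term and leaving out each library, which kept the genes tested and the dispersion trend. Replicate numbers did not pair the libraries. Library values were given for genes called with NHP, and for the 3 with the largest change among those called in each mock comparison, and at most 3 called genes were named per pathway list. Members and lists were chosen with earlier results of these data known. Sequences and gene positions are from TAIR10.1 (RefSeq).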

Additional observations from a re-analysis of the deposited data

Results flagged for a closer look

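The response of GH3.3 to NHP at 3 h differed between sid2-2 and Col-0 by 0.88 on the log2 scale (edgeR adjusted p = 0.031), a difference between genotypes under the same treatment, with NHP above mock in all libraries of sid2-2 and overlapping groups in Col-0. Batch cannot be told apart from this difference, and the call was lost in a fit of the Col-0 and sid2-2 libraries alone (edgeR adjusted p = 0.0502). With NHP the GH3.3 libraries of sid2-2 and Col-0 overlapped, and in mock sid2-2 was lower (log2 difference -0.79, edgeR adjusted p = 0.000116).

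The response of GH3.2 at 6 h differed between sid2-2 and Col-0 by 0.75 (edgeR adjusted p = 0.0328). Here all NHP libraries of sid2-2 lay above those of Col-0, and no difference was called in mock (-0.22, edgeR adjusted p = 0.255). With library batch as a term the GH3.2 call was lost (edgeR adjusted p = 0.312). Both differences lost the call without some single libraries.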

How the results depend on the processing

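Without 1 library at a time, the number of genes called with NHP lay between 0 and 2 in sid2-2 at 15 min, 0 and 2 at 30 min, 2 and 6 at 3 h, and 4 and 6 at 6 h. The range was 0 to 2, 1 to 2, 0 to 0 and 2 to 3 in fmo1-1, and 0 to 1, 0 to 1, 0 to 2 and 1 to 5 in Col-0 at the same times. For the difference of responses it was 0 to 1, 0 to 0, 0 to 2 and 0 to 3 in sid2-2, and 0 in fmo1-1 throughout. In mock it was 7 to 8, 4 to 6, 10 to 12 and 3 to 6 for sid2-2, 0 to 1 for fmo1-1 at 15 min and 0 later, and 6 to 9, 11 to 12 and 7 to 11 between successive times. Of the 432 values of named genes so obtained, 98 lost the call and 0 changed direction.

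DESeq2 on all libraries called 1 gene in Col-0 at 15 min, against 0 by edgeR, and gave 0 and 2 for the difference of sid2-2 at 3 h and 6 h, against 1 and 1. It gave no adjusted p for some genes, 16 of them in the first of these differences. Fits of the 6 libraries compared called, by edgeR, 1 gene in Col-0 at 15 min, 1 in sid2-2 at 30 min, 0 in fmo1-1 at 15 min and 1 in fmo1-1 at 3 h, and by DESeq2 1 in Col-0 at 3 h, 1 in sid2-2 at 30 min and 0 in fmo1-1 at 15 min. The Col-0 and sid2-2 libraries fitted alone, an alternative chosen after seeing the data, called 1 in Col-0 at 30 min, 1 at 3 h, 1 in sid2-2 at 30 min and 0 for the difference at 3 h. A library batch term left 0 calls in Col-0 at 6 h, 1 in sid2-2 at 6 h, 0 for their difference and 2 in mock sid2-2 at 6 h. The causes were not tested.

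Same-numbered libraries were not paired by their labels, and the correlation of their deviations lay between -0.0792 and 0.105, over 0.1 in 1 of 36 pairs. With the replicate block, all 52 named results kept their call, and the counts were equal except for 10 genes, against 9, between 3 h and 6 h in mock.

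Genes under 2 CPM rest on few counts per library. Each group held 3 wells, counting without known strand can mix overlapping genes, and whole seedlings mix organs.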
